A study of Mus musculus with 4 samples.

Results

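The transcripts described here encode 10 factors that bind AU-rich elements or related decay signals in mRNA, chosen by gene symbol from a table of 55356 genes. They are the tristetraprolin family (*Zfp36*, *Zfp36l1*, *Zfp36l2*), *Elavl1*, *Hnrnpd*, *Khsrp*, *Tia1*, the Regnase genes *Zc3h12a* and *Zc3h12c*, and the Roquin gene *Rc3h1*, each found once in the table. RNA sequencing was performed on immortalized macrophages from *MK2*-KO mouse bone marrow, so that both lines lack endogenous MK2, a kinase that acts downstream of p38. Cells given an empty retroviral GFP vector (i*MK2*-KO +*GFP*, here +*GFP* cells) were compared with cells of the same origin given MK2 by the same vector (i*MK2*-KO +*MK2*, here +*MK2* cells, wild type in a label), each line having been sorted for GFP. Each line was either left untreated (UT) or treated with murine IL-1α (5 ng/mL, 1 h), with 1 library for each of the 4 conditions.

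AU-rich elements are stretches rich in A and U in the 3′ untranslated region that mark many cytokine and immediate early mRNAs for rapid decay. Tristetraprolin (TTP, encoded by *Zfp36*) binds them and recruits the deadenylase that shortens the poly(A) tail, whereas HuR (*Elavl1*) binds similar elements and protects the mRNA. MK2 phosphorylates TTP, which weakens its recruitment of the decay machinery, and Regnase-1 (*Zc3h12a*) and Roquin (*Rc3h1*) degrade inflammatory mRNAs through stem-loop structures. RNA sequencing measures transcript levels and shows neither the phosphorylation nor the activity of these proteins.

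The deposited values were DESeq2 normalized counts rounded to whole numbers, summing to between 24891906 and 25733071 per library. *Mapkapk2*, which encodes MK2, had 561 normalized counts (UT) and 1585 with IL-1α in +*GFP* cells and 38357 and 38141 in +*MK2* cells. These gene-level values do not show whether the reads in +*GFP* cells come from the deleted part of the gene. In +*MK2* cells *Gapdh* had 38926 (UT) and 38970 (IL-1α) normalized counts, about the level of *Mapkapk2*. No library came from cells with endogenous MK2, so whether this level is that of normal macrophages was not tested. All 9 macrophage markers examined were expressed, at 364 to 64591 normalized counts, while none of 15 markers of T cells, B cells, fibroblasts, epithelial cells and neutrophils exceeded 8. Of the 9 macrophage markers, 3 were lower in +*GFP* than in +*MK2* cells by at least 1.5-fold at both conditions. These were *Mertk* with 421 and 364 normalized counts against 1093 and 1168, *Adgre1* with 3978 and 4140 against 6832 and 6330, and *Fcgr1* with 1226 and 1194 against 2108 and 2216, and their part in the results was not tested. In bulk RNA, fewer cells expressing a gene and less RNA per cell cannot be told apart. Ratios between libraries were calculated on the log2 scale after adding 1 to each value. Their 95% intervals treat each normalized count as 1 read and cover counting error only. No condition had a second library, so differences could not be set against replicate error and no p-values are given.

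To show which of these regulators carry AU-rich elements themselves, the longest annotated 3′ untranslated region of each was searched for the pentamer ATTTA and the nonamer TTATTTATT, a strong TTP binding sequence, with overlapping matches counted. All 10 transcripts held at least 1 pentamer, against 70.0% of 10709 genes tested with such a region. The nonamer was found in 5 of the 10 factors, namely *Zfp36*, *Zfp36l1*, *Zfp36l2*, *Elavl1* and *Rc3h1*, against 8.12% of the tested genes. *Elavl1* held the most nonamers, 8 in 4218 bases, whereas *Hnrnpd* had none in 5429 bases. The region of *Zfp36* measured 774 bases with 3 pentamers, and that of *Zc3h12a* measured 856 bases with 3 pentamers and no nonamer. These are matches of letters, and longer regions offer more positions for a match. The windows of 30 bases with most matches are given for 3 factors, with that of *Tnf*, the best known TTP target, for comparison. They are written 5′ to 3′ as DNA from the GENCODE M21 transcripts (GRCm38, strand as the gene), with the pentamers in capitals.
Zfp36: ctttATTTAtgacgactttATTTAttgtat
Zfp36l2: aaaaactATTTAacttATTTAttatcttgt
Elavl1: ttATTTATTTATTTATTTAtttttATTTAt
Tnf: ttATTTAttATTTATTTAttATTTATTTAt
In GRCm38 the *Zfp36* window spans chr7:28376957-28376986 and begins at base 572 after the stop codon. That of *Zfp36l2* spans chr17:84184917-84184946, that of *Elavl1* chr8:4285777-4285806 and that of *Tnf* chr17:35199678-35199707, all on the minus strand. *Elavl1* and *Tnf* each held 5 pentamers and 4 nonamers within their 30 bases, while *Zfp36* and *Zfp36l2* held 2 pentamers and 1 nonamer.

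*Zfp36*, encoding TTP (chr7:28076209-28079678 in the deposited table, which names no genome build and whose positions are not those of GRCm38), had 641 normalized counts in UT +*GFP* cells and 2569 after IL-1α. The corresponding values in +*MK2* cells were 788 and 814. Thus 1 library, that of IL-1α-treated +*GFP* cells, stood above the other 3. *Zfp36* was higher after IL-1α in +*GFP* cells, with a log2 ratio of 2.00 (interval 1.88 to 2.13). In +*MK2* cells the log2 ratio was 0.05 (-0.10 to 0.19). At rest the log2 ratio of +*GFP* to +*MK2* cells was -0.30 (-0.45 to -0.15).

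*Zfp36l2* (chr17:84491359-84495375), which encodes another decay-promoting member of the family, went the other way. Its values were 3729 normalized counts (UT) and 2383 with IL-1α in +*GFP* cells and 4238 and 4321 in +*MK2* cells. The lowest of the 4 libraries was therefore the same one in which *Zfp36* was highest. The log2 ratio of IL-1α to UT was -0.65 (-0.72 to -0.57) in +*GFP* and 0.03 (-0.03 to 0.09) in +*MK2* cells. *Zfp36l1* (chr12:80154528-80159787) was barely detected, with 3 and 0 normalized counts in +*GFP* cells and 3 and 4 in +*MK2* cells. It lies at about the limit of 3 counts that a count of 0 allows and is given no ratio.

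**Figure D1:**
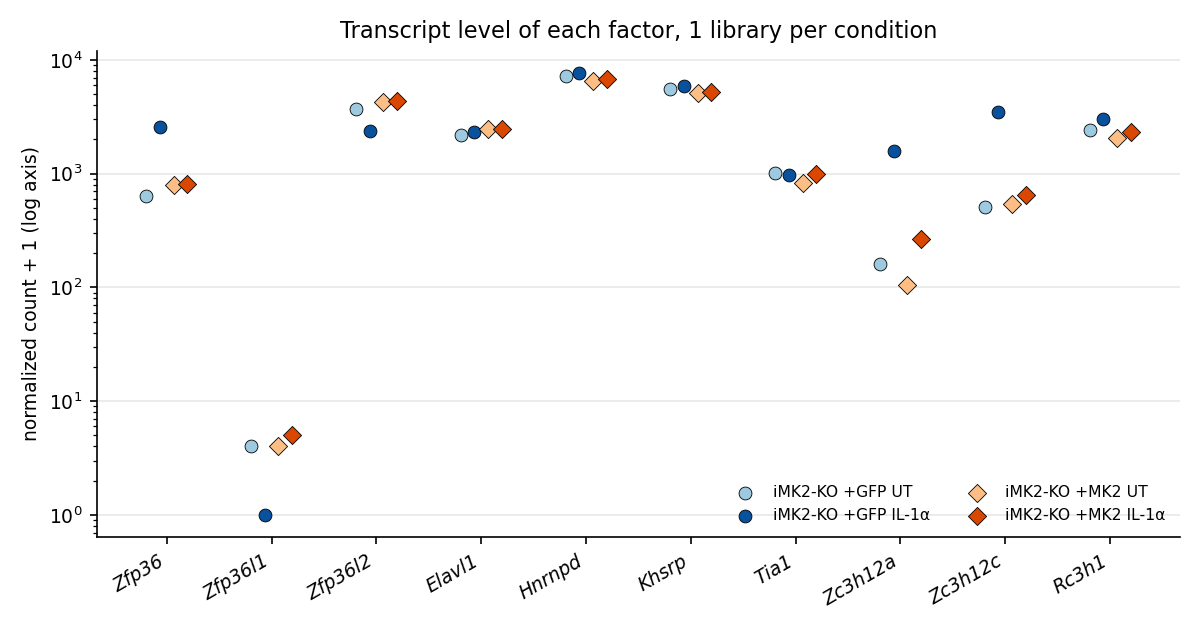
Normalized count plus 1 (log axis) of the 10 factors in each of the 4 libraries, circles for +*GFP* and diamonds for +*MK2* cells, light for UT and dark for IL-1α. For *Zfp36*, *Zc3h12a* and *Zc3h12c* the dark circle stands alone at 2569, 1590 and 3468 normalized counts, for *Zfp36l2* it is the lowest point at 2383, and *Zfp36l1* lies at 0 to 4.

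Regnase-1 is an endonuclease that cleaves *Il6* and related mRNAs. Its gene *Zc3h12a* (chr4:125012216-125021633) had the widest range of the expressed factors, with 160 normalized counts (UT) and 1590 with IL-1α in +*GFP* cells and 104 and 268 in +*MK2* cells. It was the one factor higher after IL-1α in both lines by at least 1.5-fold, 9.88-fold in +*GFP* (log2 ratio 3.30, interval 3.08 to 3.56) and 2.56-fold in +*MK2* cells (1.36, 1.03 to 1.71). *Zc3h12a* was also the one factor higher by this measure in UT +*GFP* than in UT +*MK2* cells, 1.53-fold (log2 ratio 0.62, interval 0.26 to 0.99). With the libraries scaled to *Gapdh* this log2 ratio was 0.56, below 1.5-fold.

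*Zc3h12c* (chr9:52022644-52079872), a paralog of *Zc3h12a*, had 505 normalized counts (UT) and 3468 with IL-1α in +*GFP* cells and 536 and 647 in +*MK2* cells. The UT libraries of both lines thus lay close together, with a log2 ratio of -0.09 (-0.26 to 0.09). After IL-1α *Zc3h12c* was 6.86-fold higher than in UT cells in +*GFP* (log2 ratio 2.78, interval 2.64 to 2.92) and 1.21-fold in +*MK2* cells (0.27, 0.10 to 0.44).

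*Rc3h1* (chr1:160733988-160802548), encoding Roquin-1, which recruits the deadenylase to stem-loops, had 2407 and 3055 normalized counts in +*GFP* cells and 2040 and 2335 in +*MK2* cells. Its highest library was that of IL-1α-treated +*GFP* cells and its lowest that of UT +*MK2* cells, but no ratio reached 1.5-fold. Its log2 ratio of IL-1α to UT was 0.34 (0.27 to 0.42) in +*GFP* and 0.19 (0.11 to 0.28) in +*MK2* cells.

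No ratio of the remaining factors reached 1.5-fold in any comparison. *Elavl1* (chr8:4335382-4375413) ranged from 2198 normalized counts in UT +*GFP* cells to 2485 in UT +*MK2* cells, and its IL-1α-treated libraries had 2347 and 2465. Reads of *Elavl1* could be shared with the overlapping *Ccl25*, which had 93 to 217 normalized counts. *Hnrnpd* (chr5:100103794-100126797), encoding AUF1, whose isoforms mostly promote decay, had 7268 and 7708 normalized counts in +*GFP* against 6534 and 6862 in +*MK2* cells. *Khsrp* (chr17:57328051-57338522), encoding the decay-promoting KSRP, had 5608 and 5901 against 5084 and 5221. For both genes the +*GFP* libraries were the higher ones, by log2 ratios between 0.14 and 0.18 in UT and in IL-1α-treated cells. *Tia1* (chr6:86381201-86410387), whose product silences the translation of mRNAs with AU-rich elements, had 1024 normalized counts (UT) and 980 with IL-1α in +*GFP* and 826 and 1000 in +*MK2* cells. Its lowest library was that of UT +*MK2* cells, and its log2 ratio of IL-1α to UT was -0.06 (-0.19 to 0.06) in +*GFP* and 0.28 (0.14 to 0.41) in +*MK2* cells.

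The factors were then counted against all 12483 genes whose mean reached 10 normalized counts. The factors and the lists below were chosen with earlier results of these data known. The shares of all genes are therefore given for scale only and are not a test. *Zfp36l1* was below this minimum, and the other 9 factors had at least 104 normalized counts in every library, so that none passed through a single high library. Between the UT lines 1 of the 9 factors (*Zc3h12a*) was at least 1.5-fold higher in +*GFP* cells, where 7.33% of all genes were, and none was lower, where 10.3% of all genes were (17.6% in either direction). After IL-1α, *Zfp36*, *Zc3h12a* and *Zc3h12c* were higher in +*GFP* cells, 3 of 9 against a background of 8.41%, and *Zfp36l2* was lower, 1 of 9 against 11.2% (4 of 9 against 19.6% in either direction). The log2 ratios of these 4 genes between the IL-1α-treated lines were 1.66 (interval 1.54 to 1.77), 2.56 (2.38 to 2.76), 2.42 (2.30 to 2.55) and -0.86 (-0.93 to -0.79), respectively.

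In +*GFP* cells IL-1α was accompanied by a difference of at least 1.5-fold in 4 of the 9 factors, 3 higher against 4.7% of all genes and 1 lower against 4.29% (8.99% in either direction). In +*MK2* cells *Zc3h12a* was higher, 1 of 9 against 2.72%, and no factor was lower, against 2.92% (5.64% in either direction). With a limit of 2-fold, 0 of the 9 factors were higher in +*GFP* cells at rest, against 3.51% of all genes, and 3 after IL-1α, against 4.16%. At this limit 3 were higher after IL-1α in +*GFP* cells, against 2.25%, and 1 in +*MK2* cells, against 0.889%. In each comparison 0 factors were lower at 2-fold, so that *Zfp36l2* no longer counted. The share of all genes lower at 2-fold was not calculated. The medians over the 9 factors were close to 0 in each comparison, at 0.14 and 0.18 between the lines (UT and IL-1α) and 0.09 and 0.07 for the responses of +*GFP* and +*MK2* cells. Over all genes tested these medians were 0.02, 0.03, 0.01 and 0.01. The comparisons share libraries and are therefore not independent of each other.

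**Figure D2:**
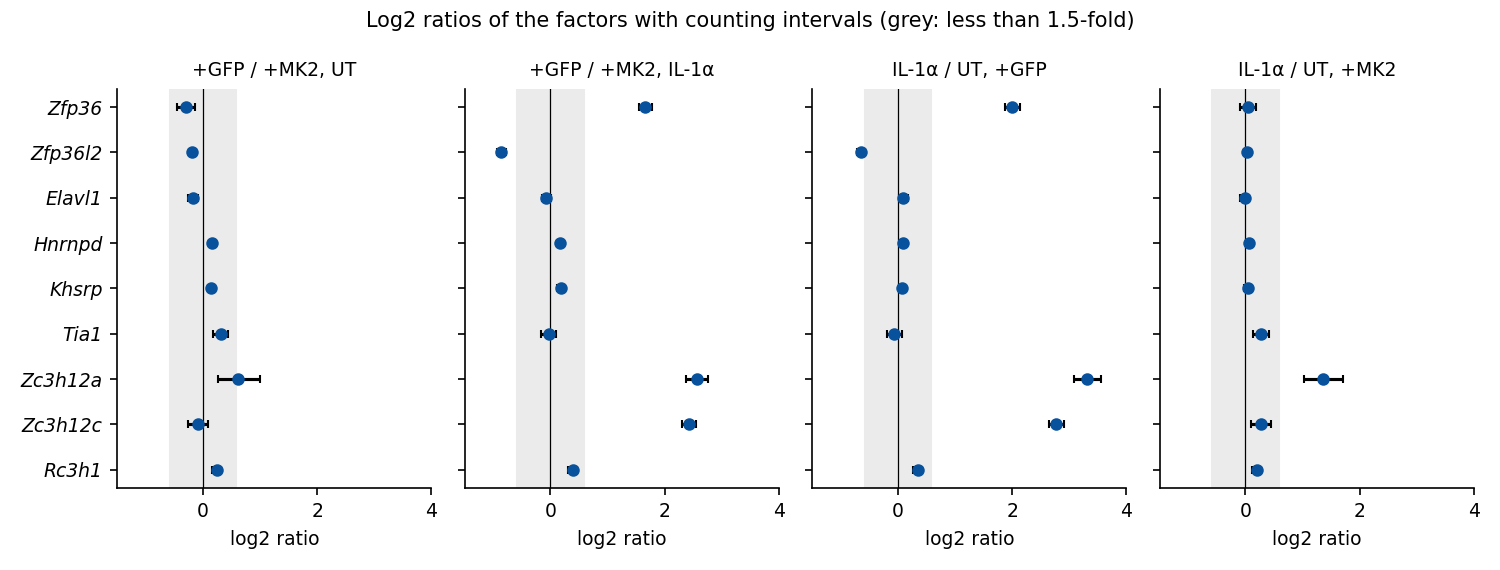
Log2 ratios of the 9 expressed factors in the 4 comparisons, with bars for the 95% counting interval and a grey band for ratios below 1.5-fold. Points outside the band are *Zc3h12a* in all comparisons, *Zfp36* and *Zc3h12c* in the IL-1α-treated lines and in the response of +*GFP* cells, and *Zfp36l2* to the left in the same ones.

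The response of +*GFP* cells minus that of +*MK2* cells was 2.51 for *Zc3h12c* (approximate interval 2.29 to 2.72), 1.95 for *Zfp36* (1.77 to 2.14) and 1.95 for *Zc3h12a* (1.55 to 2.35) on the log2 scale. Of all genes tested, 6.57% had a difference of at least 1.5-fold in this direction. It was -0.67 (-0.77 to -0.58) for *Zfp36l2*, where 6.1% of all genes had one of this size (12.7% in either direction). *Tia1* followed with -0.34 (-0.52 to -0.16). The intervals of *Elavl1*, *Hnrnpd* and *Khsrp* included 0, with values of 0.11, 0.01 and 0.04, and *Rc3h1* stood at 0.15 (0.03 to 0.26). Whether the responses differ between the lines beyond the variation of cultures was not tested.

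**Figure D3:**
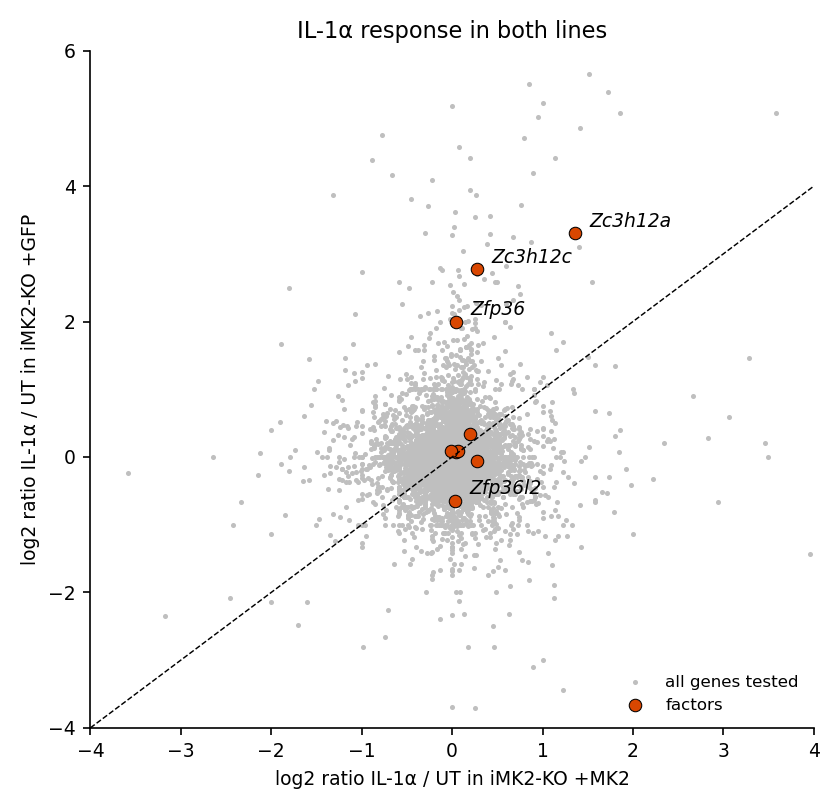
Log2 ratio of IL-1α to UT in +*MK2* cells (x axis) against that in +*GFP* cells (y axis), with the 9 expressed factors in orange over all genes tested in grey and equal responses on the dashed line. *Zc3h12a* (1.36, 3.30), *Zc3h12c* (0.27, 2.78) and *Zfp36* (0.05, 2.00) lie above the line and *Zfp36l2* (0.03, -0.65) below it, and 31 genes fall outside the axes.

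The opposite movement of *Zfp36* and *Zfp36l2* exchanged their order within the family. Per kilobase of the GENCODE M21 transcript with the longest 3′ untranslated region, *Zfp36* had 229.7 and *Zfp36l2* 1056 normalized counts in UT +*GFP* cells. After IL-1α they had 920.8 and 675.1. In +*MK2* cells *Zfp36l2* remained the higher one, with 1201 against 282.4 (UT) and 1224 against 291.8 (IL-1α). *Zfp36* thereby made up 17.9% of the summed level of the family in UT and 57.7% in IL-1α-treated +*GFP* cells, and 19.0% and 19.2% in +*MK2* cells. The sum over the family was 1287 (UT) and 1596 (IL-1α) normalized counts per kilobase in +*GFP* cells and 1484 and 1517 in +*MK2* cells. For *Zc3h12a* and *Zc3h12c* together, the sum was 132.7 and 1090 in +*GFP* cells and 117.0 and 192.9 in +*MK2* cells. Which isoform the cells express is not known from gene-level values. The lengths used were 2790 bases for *Zfp36* and 3530 for *Zfp36l2*, and other lengths would change these shares and sums.

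**Figure D4:**
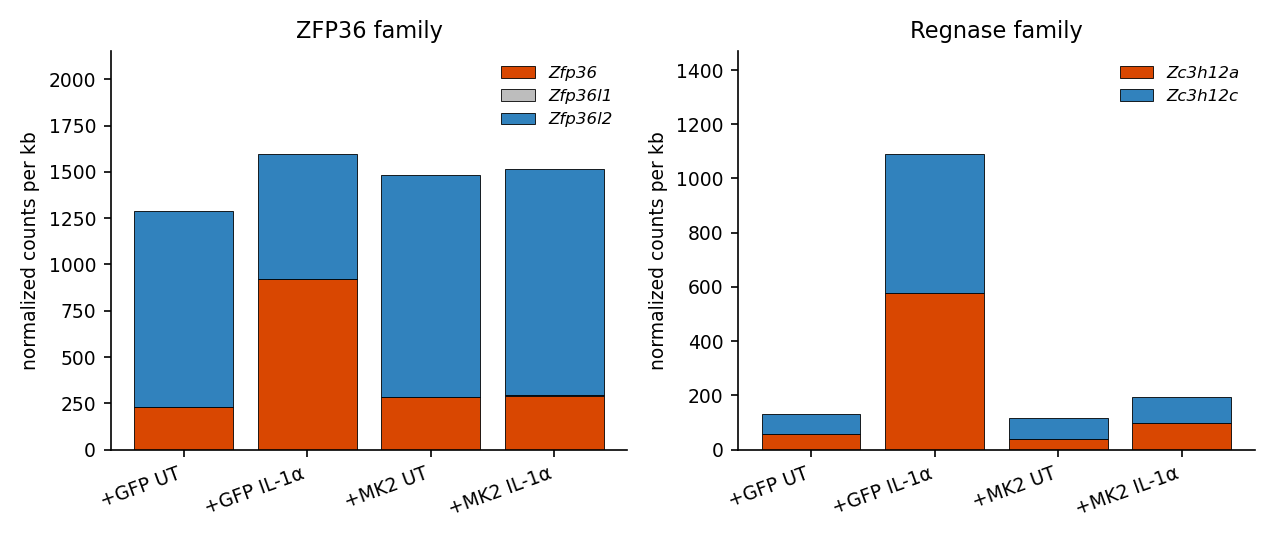
Stacked normalized counts per kilobase of transcript in each library for the family of TTP (left) and for *Zc3h12a* and *Zc3h12c* (right). The orange part of *Zfp36* grows from 229.7 to 920.8 in +*GFP* cells while the blue part of *Zfp36l2* shrinks from 1056 to 675.1, and the bars of *Zc3h12a* and *Zc3h12c* are tall in 1 library.

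The genes whose pattern over the 4 libraries was nearest to that of the 2 factors with the widest range were sought among the 9893 genes whose mean reached 100. The measure was the Euclidean distance of log2 values centred on each gene's mean, which rests on 4 points. For *Zc3h12c* the nearest were *Icam1* (distance 0.20), *Ccl4* (0.20), *Irf1* (0.27), *Relb* (0.28) and *Ier3* (0.31). For *Zc3h12a* the nearest were *Nfkbia* (0.55), *Relb* (0.69), *Nod2* (0.78), *Nfkbie* (0.78) and *Tlr2* (0.81). *Nfkbia*, encoding an inhibitor of NF-κB, had 587 and 7794 normalized counts in +*GFP* and 480 and 815 in +*MK2* cells.

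As *Zfp36*, *Zc3h12a* and *Zc3h12c* were higher together, the 250 bases upstream of their starts are given, from RefSeq (GRCm38.p6, minus strand of the genome, 5′ to 3′). Entries existed for 9 of the 10 factors, all but *Zfp36l2*. Each entry, with 50 further bases after the start, was searched on both strands for the NF-κB consensus, AP-1 (TGANTCA), CRE (TGACGTCA), the CArG box and STAT (TTCNNNGAA) motifs, and matches are in capitals.
Zfp36, chr7:28379229-28379478: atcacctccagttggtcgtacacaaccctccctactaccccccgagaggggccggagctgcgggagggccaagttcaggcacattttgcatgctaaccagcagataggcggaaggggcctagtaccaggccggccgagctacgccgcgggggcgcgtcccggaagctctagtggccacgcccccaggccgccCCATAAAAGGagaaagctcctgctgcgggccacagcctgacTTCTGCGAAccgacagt
Zc3h12a, chr4:125127882-125128131: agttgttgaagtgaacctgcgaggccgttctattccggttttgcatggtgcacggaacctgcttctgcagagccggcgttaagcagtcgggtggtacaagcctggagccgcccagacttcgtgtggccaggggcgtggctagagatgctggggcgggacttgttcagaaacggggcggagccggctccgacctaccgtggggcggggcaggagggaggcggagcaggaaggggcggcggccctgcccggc
Zc3h12c, chr9:52168407-52168656: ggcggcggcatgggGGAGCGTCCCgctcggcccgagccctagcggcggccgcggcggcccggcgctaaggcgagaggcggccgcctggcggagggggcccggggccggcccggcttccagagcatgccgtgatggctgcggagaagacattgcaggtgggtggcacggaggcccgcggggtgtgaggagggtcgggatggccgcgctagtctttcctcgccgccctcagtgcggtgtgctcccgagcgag
*Zfp36* held a CArG box, the sequence bound by serum response factor, which is present in 1.63% of 32851 promoters and also in *Hnrnpd*, and a STAT motif, which is present in 8.3%. The only match to the NF-κB consensus among the factors was in *Zc3h12c*, near the 5′ end of the window, against 8.46% of all promoters. An AP-1 motif, found in 7.81% of promoters, was present in *Rc3h1* and *Zfp36l1*, and the CRE motif (1.79%) in none of the factors. A second promoter entry of *Zc3h12c* held no match.

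The machinery that these factors recruit was examined in 3 lists of 50 genes, of which 49 were above the minimum. Among 18 genes of deadenylation, *Btg2*, which stimulates the deadenylase and restrains proliferation, was the one higher after IL-1α in +*GFP* cells (4.7% of all genes). It had 442 normalized counts (UT) and 1429 with IL-1α in +*GFP* and 348 and 401 in +*MK2* cells, log2 ratios of 1.69 (1.54 to 1.85) and 0.20. The related *Tob1* was lower in IL-1α-treated +*GFP* than +*MK2* cells, with 836 against 1292, 1 of 18 where 11.2% of all genes were lower. None of the 17 genes of decapping and 5′ to 3′ decay and none of the 14 tested exosome genes passed 1.5-fold after IL-1α in either line, where their log2 ratios lay between -0.28 and 0.28. Of all genes 8.99% did so in +*GFP* and 5.64% in +*MK2* cells, so that few calls would be reached in lists of this size at the background share. Between the lines *Lsm1*, a subunit of the decapping activator complex, was lower in +*GFP* cells at both conditions, with 659 against 1246 normalized counts (UT) and 689 against 1369 (IL-1α). It was 1 of the 17 genes of its list, against 10.3% (UT) and 11.2% (IL-1α) of all genes.

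The 23 tested genes of other proteins that bind AU-rich or related elements were examined next. After IL-1α none passed 1.5-fold in +*MK2* cells (5.64% of all genes) and 2 were higher in +*GFP* cells (4.7%). These were *Arid5a*, whose product stabilizes *Il6* mRNA (117 to 178 normalized counts), and the mainly neuronal *Elavl4* (30 to 46), whose counting interval of -0.08 to 1.33 included 0. Both lay at a log2 ratio of 0.60, just above the limit, and neither reached it under any of the 3 other scalings, which left 0 of the 23 genes. *Arid5a* and *Elavl4* were also lower in +*GFP* than in +*MK2* cells, 2 of 23 at both conditions. This is near the share of all genes, 10.3% (UT) and 11.2% (IL-1α). *Arid5a* had 645 normalized counts (UT) and 713 with IL-1α in +*MK2* cells, log2 ratios of -2.45 and -2.00, and *Elavl4* had 139 and 133. Among 14 partners of TTP no gene passed the limit after IL-1α, against 8.99% of all genes in +*GFP* and 5.64% in +*MK2* cells. *Sh3kbp1* and *Nup214* were lower in +*GFP* cells at both conditions, 2 of 14 against the same 10.3% and 11.2%. *Sh3kbp1* had 505 against 1493 and 460 against 1562 normalized counts, and *Nup214* had 4283 against 6926 and 4384 against 6644.

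Of 19 TTP target transcripts 13 were above the minimum. *Cxcl2* reached it only through the IL-1α-treated +*GFP* library, the same one that makes it higher there. The counts and medians of this list include it. After IL-1α 8 were higher and 1 lower in +*GFP* cells (4.7% and 4.29% of all genes), with a median log2 ratio of 1.89, and 3 (*Cxcl2*, *Il1b* and *Tnf*) were higher in +*MK2* cells (2.72% of all genes), with a median of 0.31. *Tnf* had 332 normalized counts (UT) and 10784 with IL-1α in +*GFP* and 315 and 608 in +*MK2* cells, and *Cxcl2* had 0 and 981 against 0 and 4, so that its place among the 3 rests on 4 normalized counts. *Il1b*, encoding IL-1β, had 47 and 2007 against 15 and 52, *Il1a* had 13 and 136 against 41 and 55, and *Ptgs2*, encoding cyclooxygenase-2, had 415 and 1544 against 326 and 381. Each of these 5 transcripts was highest in IL-1α-treated +*GFP* cells. Between the IL-1α-treated lines 8 of the 13 targets were higher and 4 were lower in +*GFP* cells (8.41% and 11.2% of all genes). *Fos* was the 1 lower after IL-1α in +*GFP* cells, with 143 and 67 normalized counts, and had 218 and 185 in +*MK2* cells. Between the UT lines 1 target (*Il1b*) was higher and 5 were lower in +*GFP* cells (7.33% and 10.3% of all genes), among them *Ccl2* (1216 against 3868) and *Vegfa* (564 against 1288). The median there was -0.10.

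The list of Regnase-1 and Roquin targets had 12 genes, including *Zc3h12a* itself as well as *Tnf* and *Ptgs2* from the list above, and 8 of them were above the minimum. In +*GFP* cells 6 were higher and 2 lower after IL-1α, with a median log2 ratio of 1.73, and in +*MK2* cells 6 were higher, with a median of 0.78. Over all genes the shares were 4.7%, 4.29% and 2.72%. Between the IL-1α-treated lines 6 were higher and 2 lower in +*GFP* cells (8.41% and 11.2% of all genes). *Nfkbid*, a nuclear inhibitor of NF-κB, lay exactly at 1.5-fold in +*MK2* cells with 639 and 959 normalized counts. *Nfkbiz*, encoding a cofactor of NF-κB, had 190 and 9664 normalized counts in +*GFP* and 183 and 526 in +*MK2* cells. The lower ones in +*GFP* cells were *Icos* (39 to 23) and *Tnfrsf4* (19 to 6). Both have few counts, and both were among the 6 higher in +*MK2* cells (49 to 85 and 6 to 11). The minimum was reached by *Tnfrsf4* only through its UT +*GFP* library, the same one that makes it lower after IL-1α. The counts and medians of this list include it. Transcript levels reflect both synthesis and decay, and which of them differed was not measured.

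**Figure D5:**
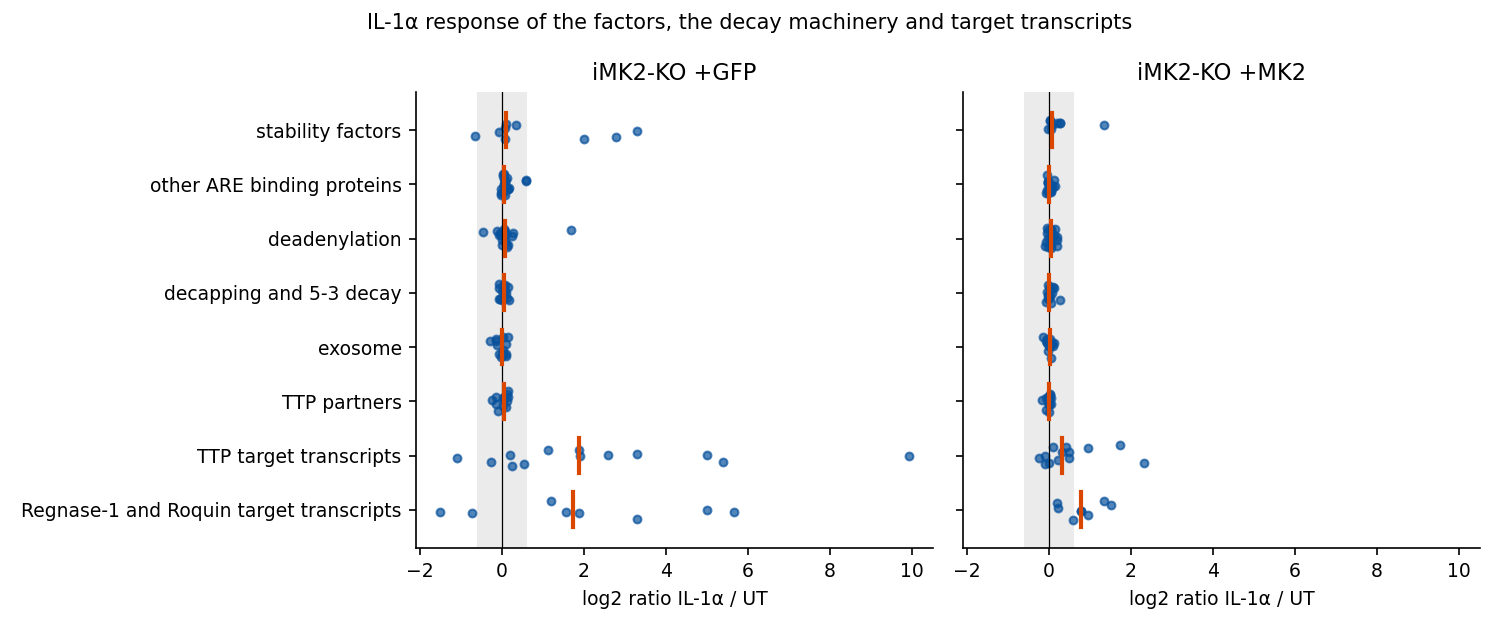
Log2 ratio of IL-1α to UT for each tested gene of the factors and the 7 lists in +*GFP* (left) and +*MK2* cells (right), with an orange bar at the median and a grey band below 1.5-fold. The machinery lists stay within the band except *Btg2* in +*GFP* cells, while the medians of the target lists are 1.89 and 1.73 in +*GFP* and 0.31 and 0.78 in +*MK2* cells.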

How the data were processed

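RNA from 4 cultures of immortalized mouse macrophages, 1 per condition, was sequenced on an Illumina NextSeq instrument. The labels describe poly(A) selection with a stranded kit and 2 reads per fragment, whereas the methods of the study describe ribo-depletion and single reads. The authors deposited 1 table of DESeq2 normalized counts. Outside the intervals it is treated here as a score because the authors rounded the values to whole numbers and no size factors were used here. Column names point to salmon, and the submitters' processing notes name DESeq2 and GRCm38. The gene positions are not those of GRCm38, since 1494 of 52080 shared gene IDs had the same position in GENCODE M21. Columns were matched to samples by library name.

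Values were used as deposited, with no further normalization, and only the intervals rest on a model of counts. Log2 ratios used a pseudocount of 1, and a gene was counted as higher or lower at 1.5-fold or more if its mean reached 10. Intervals are exact Clopper-Pearson intervals of the share of both values, those of the difference between responses use a normal approximation, and both assume 1 read per normalized count. The read depth of each library is unknown. Members and lists were chosen with earlier results of these data known. Named genes were the 10 members, up to 4 genes per list and comparison with the largest ratio past the limit, and the 5 nearest patterns of 2 members. *Fos*, *Nfkbid* and the 3 macrophage markers were named after their values were seen. Python 3.11.15, pandas 2.3.3 and scipy 1.17.1 were used. Alternatives were scaling to column sums, upper quartiles or *Gapdh*, pseudocounts of 0.5 and 5, minimum means of 50 or none, 2-fold calls, calls by counting interval, and 0.7 or 1.3 reads per normalized count.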

Additional observations from a re-analysis of the deposited data

Results flagged for a closer look

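Among the 104 tested list genes outside the factors, 3 moved in opposite directions after IL-1α in both lines, each beyond counting error, and the difference was not tested. The share of all genes meeting this rule was not calculated. *Ccl2*, a monocyte chemokine, had a log2 ratio of 0.54 in +*GFP* and -0.10 in +*MK2* cells. *Cnot1*, the scaffold of the deadenylase complex that TTP recruits, had 0.0848 and -0.0742, and *Pan3*, a subunit of another deadenylase, had -0.12 and 0.16. The interval of *Cnot1* in +*GFP* cells began at 0.0398, and scaling to upper quartiles shifted the median of all genes there by -0.0569. Whether *Cnot1* lies beyond counting error thus depends on the scaling. None of the 10 factors met this criterion.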

How the results depend on the processing

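No paired analysis was possible because each condition holds 1 library. Of the factors, the number at least 1.5-fold apart between the UT lines went from 1 (*Zc3h12a*) to 0 both with scaling to *Gapdh* and with a limit of 2-fold. When a call required only that the counting interval exclude 0, it became 8 for the UT lines, 7 for the IL-1α-treated lines, 8 for the response of +*GFP* and 5 for that of +*MK2* cells, because small ratios of abundant genes then count. The share of all genes called in this way was not calculated, so these counts have no background beside them. Over the 118 list genes outside the factors, 7 were past 1.5-fold after IL-1α in +*MK2* cells, 11 with no minimum and 3 at 2-fold, and 12 between the UT lines, 19 with no minimum. The other counts over the factors or over all list genes stayed within 1.5 times their value. Within single lists, the 2 other genes for proteins that bind AU-rich elements higher after IL-1α in +*GFP* cells (*Arid5a*, *Elavl4*) became 0 under each of the 3 scalings and at 2-fold and 1 with a pseudocount of 5. The 6 Regnase-1 and Roquin targets higher in +*MK2* cells became 5 under each scaling, 4 with a pseudocount of 5 or a minimum of 50, and 2 at 2-fold, and the 2 lower in +*GFP* cells became 0 with a minimum of 50. No ratio of a factor past 1.5-fold changed sign under any scaling, pseudocount or minimum, but none could be expected to. Such a ratio is at least 0.585 in log2 in either direction, more than these settings shift it, and a minimum alters no ratio. Scaling to *Gapdh* shifted the median of all genes by -0.10 between the IL-1α-treated lines and by less in the other comparisons. With 0.7 or 1.3 reads per normalized count the number of factors beyond counting error was the same or, for the response of +*GFP* cells, 7 in place of 8, as *Elavl1* fell out at 0.7. Without replicates, variation between cultures and between transduced lines cannot be told apart from the effects of MK2 or IL-1α.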

Other observations

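Across all genes tested with an annotated 3′ untranslated region, 870 held at least 1 nonamer TTATTTATT and 9839 held none. After IL-1α, 5.98% of the genes with a nonamer and 3.49% of those without were at least 1.5-fold higher in +*GFP* cells, while 2.07% and 2.61% were lower. In +*MK2* cells 1.49% and 1.57% were higher. Between the UT lines the shares higher in +*GFP* cells were 5.63% and 6.2%, and the shares lower were 10.5% and 8.86%. Between the IL-1α-treated lines 8.74% and 7.33% were higher in +*GFP* cells, and 10.9% and 9.76% were lower. The regions with a nonamer were longer, with a median of 2350.5 bases against 1076, and the part of length in these shares was not tested. Genes without a nonamer but with an ATTTA pentamer (6628 genes, median 1570 bases) had 3.73% higher after IL-1α in +*GFP* cells.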
